A study of Oryctolagus cuniculus with 4 samples.

Results

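Complement C1q is the recognition unit of the classical complement pathway. It is built from 3 kinds of chain, which are encoded by C1QA, C1QB and C1QC, and each arm of the protein needs a copy of every chain to fold its collagen-like stalk and its globular head. C1q binds antibody-coated or dying material, and the bound complex activates the proteases C1r and C1s, which SERPING1, the C1 inhibitor, restrains. Unlike most complement proteins, which the liver supplies, C1q comes mainly from tissue macrophages. The 3 genes C1QA (ENSOCUG00000029367), C1QB (ENSOCUG00000015143) and C1QC (ENSOCUG00000015138) were taken by their symbols from the 18475 genes of the count matrices, each of them having 1 entry. In the RefSeq annotation of the rabbit assembly mOryCun1.1 they stand side by side in the order C1QB, C1QC, C1QA.

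The samples came from the bladder mucosa of adult New Zealand rabbits and were profiled by droplet-based single-cell RNA sequencing. Normal_1 and Normal_2 were mucosa without injury, and Injury_1 and Injury_2 were harvested 10 days after a focal resection of the mucosa, when the labels have the wound newly covered by urothelium. Each of the 4 samples was a piece of whole mucosa digested with collagenase and sequenced as 1 library. The labels call them urothelium and name no animal, while the study calls the 2 samples of each condition biological replicates. The p-values below measure the spread between these libraries. Against the label, epithelial-like cells made up only 6.99% of the cells, while fibroblast-like cells made up 41.4% and endothelial-like cells 24.6%.

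After quality limits 21945 cells remained, between 4308 and 6081 per sample, with a median of 4814 to 7186 unique molecular identifiers (UMIs, each standing for 1 captured RNA molecule) per cell. Normal_1 was the shallowest library. The limit of 15% mitochondrial UMIs removed 23.8% of the barcodes of Normal_1, 12.4% of Normal_2, 10.5% of Injury_1 and 9.66% of Injury_2. With the quality limits, C1Q UMIs went from 1233 to 1040 in Normal_1 and from 4084 to 3684 in Normal_2. They went from 10795 to 10727 in Injury_1 and from 3513 to 3464 in Injury_2. The normal samples thus lost a larger share of their C1Q UMIs. The effect of this loss on the comparisons below was not tested. Between 4 and 12 cell barcodes were shared by a pair of libraries, at most 0.217% of the smaller one. Cells with a high doublet score were kept, and results without them are given with the other alternatives. Levels below are CPM, the UMIs of a gene per 1000000 UMIs summed over a group of cells. Since the kit reads 3' ends, a level counts molecules without scaling for transcript length, and it also depends on how well the end of each gene is annotated.

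Of 18915 C1Q UMIs in kept cells, 11023 were C1QA, 5431 C1QB and 2461 C1QC. Macrophage-like cells held 98.4% of them in Normal_1, 95.1% in Normal_2, 98.0% in Injury_1 and 99.5% in Injury_2, although they were only 1429 of the cells. The injured and normal ranges overlapped (difference 2.03 percentage points, two-sided exact permutation p = 0.667, smallest p that 2 against 2 samples allow 0.333).

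In macrophage-like cells the level of C1QA was 872 CPM in Normal_1, 2602 in Normal_2, 1215 in Injury_1 and 460 in Injury_2. C1QB stood at 319, 1045, 633 and 262 CPM in the same order. C1QC was the lowest of the 3 in each sample, with 163, 335, 309 and 119 CPM. Normal_2 was highest and Injury_2 lowest for each chain, and the injured and normal samples overlapped.

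In the 9 other named classes the summed C1Q level averaged 22.8 CPM or less over the 4 samples. T and NK cell-like cells stood at 22.8 ± 42.5 CPM (SD, n = 4), epithelial-like at 10.2 ± 13.3, neutrophil-like at 9.15 ± 18.3, fibroblast-like at 1.74 ± 2.23, glial-like at 1.58 ± 3.16, endothelial-like at 1.01 ± 0.388, B cell-like at 0.973 ± 1.95, and smooth muscle and pericyte-like at 0.811 ± 0.940 CPM. Their spreads were as large as the means in all but the endothelial-like class, so the order among them cannot be told apart. Mast cell-like cells held 0 C1Q UMIs among 227941, which allows up to 13.2 CPM. Only macrophage-like cells, at 2083 ± 1377 CPM, stood above the range of every other class in each sample. These class levels are a description, because the classes were drawn on these cells.

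**Figure D1:**
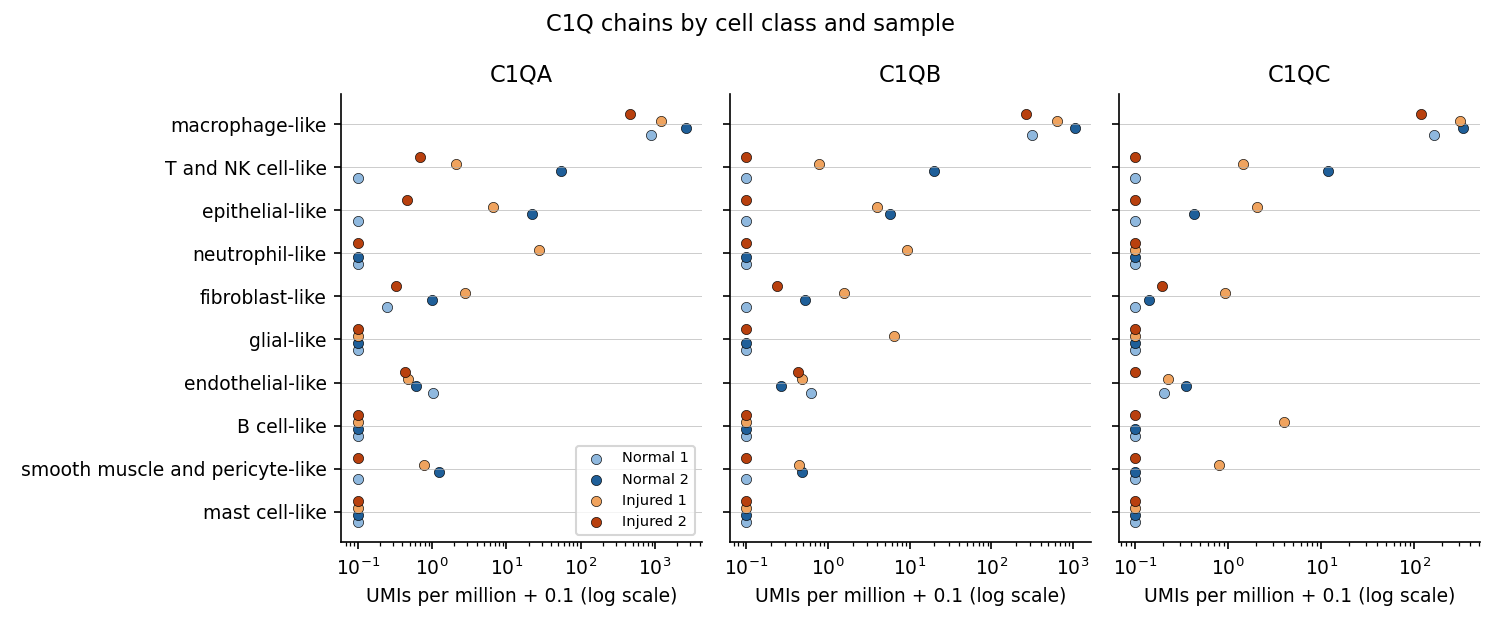
Levels of C1QA, C1QB and C1QC by cell class, as CPM plus 0.1 on a log axis, with 1 point per sample. In macrophage-like cells the points sit between 119 and 2602 CPM, and points at the left edge are samples with 0 UMIs of the chain in that class.

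Outside the macrophage-like class 167 of 20516 cells (0.814%) had a C1Q UMI, and 151 of these had just 1. The other UMIs were concentrated in few cells: 8 cells with at least 10 C1Q UMIs held 251 of the 430 UMIs outside the class. They were 4 epithelial-like, 2 fibroblast-like, 1 T and NK cell-like and 1 unnamed cell, and 5 of the 8 were among the 5% of cells with the highest doublet score of their sample. In the remaining cells outside the class C1QA made up 58.7% of 179 C1Q UMIs, C1QB 26.3% and C1QC 15.1%, close to the 58.2% of C1QA in macrophage-like cells.

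Within the macrophage-like class most C1Q UMIs lay in a single cluster. The class consisted of 3 clusters drawn without the C1Q genes, and the cluster here called the C1Q cluster (623 cells) held 98.0% of all C1Q UMIs of Normal_1, 92.7% of Normal_2, 93.6% of Injury_1 and 99% of Injury_2. It also carried the macrophage receptors CSF1R (405 to 1386 CPM over the 4 samples), MRC1 (827 to 1697 CPM) and CD163 (106 to 307 CPM). A cluster of 411 cells rich in MHC class II transcripts (HLA-DRA 7504 to 12530 CPM, CSF1R 7.08 to 49.5 CPM) had 12 C1Q UMIs in all, with 0 in both normal samples, which allows up to 7.08 CPM in Normal_1 and 7.84 CPM in Normal_2. A C1Q UMI was seen in 1.95% of its cells at a median depth of 7614 UMIs, beside 0.882% of fibroblast-like cells at a median depth of 7278. In this cluster 7 of 9 measured macrophage markers were raised, but CD163 stood at 0 to 1.83 CPM and MSR1 at 0 to 3.66 CPM. MRC1 stood at 2.61 to 33.0 CPM, and the dendritic cell marker XCR1 at 7.33 to 37.8 CPM, beside 0 in the C1Q cluster. Whether these cells are macrophages or dendritic cells was not tested. They made up 46.2%, 32.8%, 21.8% and 32.0% of the class in Normal_1, Normal_2, Injury_1 and Injury_2, and levels of the class include them. The last cluster, of 395 cells led by IL1B and SERPINB2, held 568 C1Q UMIs and 18 cells with 10 or more of them, and C1Q was seen in 21.7% of its cells in Normal_2 and 13.5% in Injury_1, but in 3.33% in Normal_1 and 3.73% in Injury_2.

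C1QA in the C1Q cluster stood at 4283 CPM in Normal_1 (41 cells), 7852 in Normal_2 (57 cells), 2642 in Injury_1 (297 cells) and 1236 in Injury_2 (228 cells). The values of C1QB were 1573, 3049, 1320 and 699 CPM. Those of C1QC were 796, 955, 657 and 316 CPM. For each chain both injured samples lay below both normal ones, and Injury_2 was the lowest.

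C1Q was close to on or off from cell to cell in this cluster. In Normal_1 29.3% of the cells had 0 C1Q UMIs, in Normal_2 21.1%, in Injury_1 54.9% and in Injury_2 68.0%. At the other end, at least 10 C1Q UMIs were found in 24 of 41 cells of Normal_1 (58.5%, 95% Wilson interval 43.4 to 72.2), in 43 of 57 of Normal_2 (75.4%, 62.9 to 84.8), in 123 of 297 of Injury_1 (41.4%, 36.0 to 47.1) and in 63 of 228 of Injury_2 (27.6%, 22.2 to 33.8). These intervals cover counting error only. Between 1 and 9 C1Q UMIs were rare, at 12.2% of the cells of Normal_1, 3.51% of Normal_2, 3.70% of Injury_1 and 4.39% of Injury_2.

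Depth did not separate the cells with and without C1Q in the injured samples. C1Q-free cells had a median of 6586 UMIs and C1Q-bearing cells (at least 10 C1Q UMIs) 6576 in Injury_1, and the medians were 5906 and 6008 in Injury_2. In the normal samples the C1Q-free cells were the deeper ones, with medians of 4392 against 2839 UMIs in Normal_1 and 5301 against 4619 in Normal_2. The share of bearing cells was lower in both injured samples (34.5% ± 9.75 against 67.0% ± 12, SD, n = 2 each, two-sided exact permutation p = 0.333, the smallest the design allows). Within cells of 3000 to 12000 UMIs the difference was -22.8 percentage points, beside -32.5 in all cells of the cluster. In this range Normal_1 had only 10 bearing and 10 free cells, and Injury_1 had 104 and 138. Normal_2 had 32 and 12, and Injury_2 had 52 and 125. Bearing cells thus outnumbered free ones in Normal_2 alone.

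**Figure D2:**
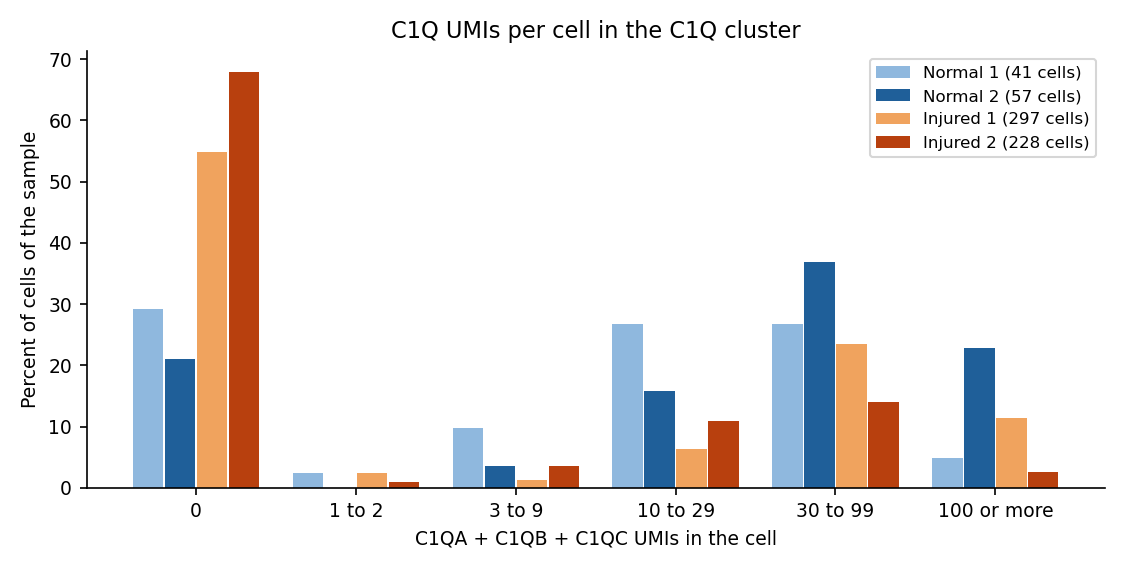
Percent of the cells of the C1Q cluster (y axis) by their summed C1QA, C1QB and C1QC UMIs (x axis), with 1 bar per sample. In each sample the cells divide between 0 UMIs and 10 or more, with few between, and the bars at 0 are 29.3% and 21.1% in the normal and 54.9% and 68.0% in the injured samples.

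In bearing cells the summed C1Q level was 11933 CPM in Normal_1, 15797 in Normal_2, 11423 in Injury_1 and 8239 in Injury_2. A bearing cell had a median of 35, 65, 65 and 39 C1Q UMIs in these samples, and the highest held 299. The injured samples again lay below the normal ones, but by less: the mean difference was -0.50 on the log2 CPM scale (normal 13.75 ± 0.29, injured 13.24 ± 0.33, SD, n = 2 each, exact permutation p = 0.333, the smallest possible), and Normal_1 and Injury_1 differed by little. Both this level and the share of bearing cells were examined after the values of the cluster had been seen.

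The chains kept a constant order over the samples. In macrophage-like cells C1QA exceeded C1QB by 2.73-fold in Normal_1, 2.49-fold in Normal_2, 1.92-fold in Injury_1 and 1.76-fold in Injury_2. The mean log2 ratio was 1.13 ± 0.30 (SD, n = 4). C1QA exceeded C1QC by 5.36-, 7.76-, 3.94- and 3.86-fold, a mean log2 ratio of 2.33 ± 0.47, and C1QB exceeded C1QC by 1.96-, 3.12-, 2.05- and 2.20-fold, a mean of 1.20 ± 0.30. Each of the 3 pairs had the same direction in 4 of 4 samples, with an exact sign-flip p of 0.125 and 0.125 after Benjamini-Hochberg adjustment over the 3 pairs, which is the smallest p that 4 samples allow. Whether proteins follow these transcript ratios was not measured.

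The C1QA share was lower in both injured samples than in both normal ones. C1QA made up 64.4% of the C1Q UMIs of macrophage-like cells in Normal_1 and 65.3% in Normal_2, against 56.3% in Injury_1 and 54.7% in Injury_2. C1QB took 23.6% and 26.2% in the normal samples against 29.3% and 31.1% in the injured ones. C1QC took 12% and 8.42% against 14.3% and 14.2%. None of the 3 shares overlapped between the conditions, with differences of -9.35, 5.34 and 4.01 percentage points (two-sided exact permutation p = 0.333 for each and 0.467 adjusted over 7 comparisons between conditions). The difference of -9.35 points in C1QA stands beside SDs of 0.655 in the normal and 1.15 in the injured pair, but a test of 2 against 2 samples cannot pass 0.05. The 3 shares add up to a whole and are not independent of each other. How often the ratios of other genes separate these samples in the same way was not computed.

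**Figure D3:**
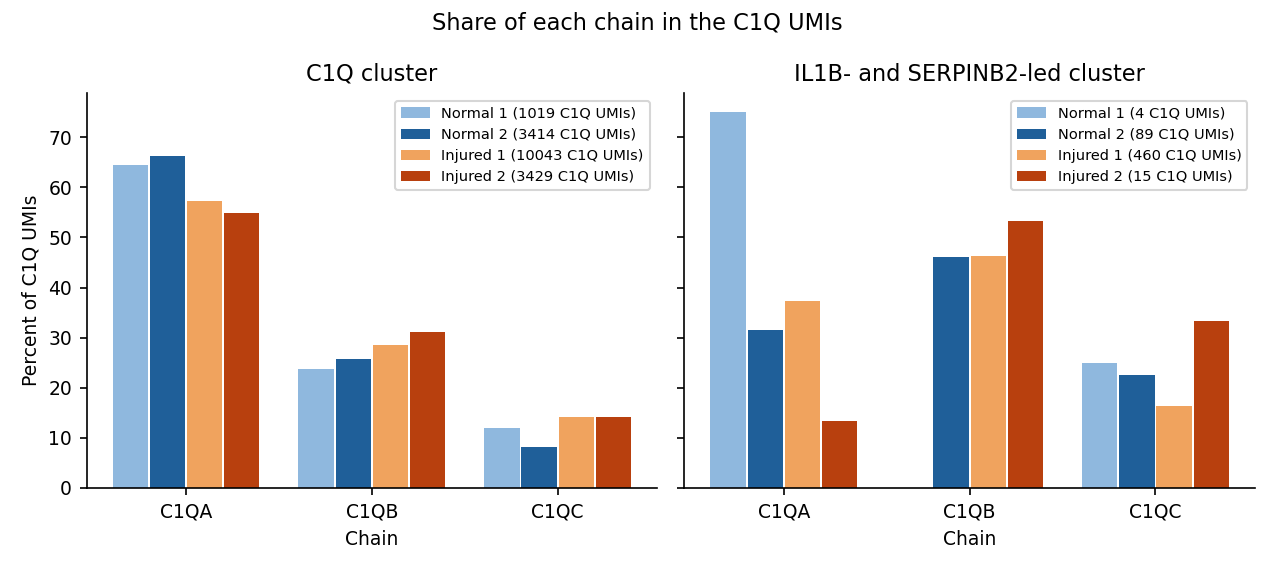
Percent of the C1Q UMIs (y axis) that were C1QA, C1QB or C1QC in the C1Q cluster and in the cluster led by IL1B and SERPINB2, with 1 bar per sample and the number of C1Q UMIs behind each in the legend. In the C1Q cluster C1QA is the largest share in each sample and lower in the injured samples, and in the other cluster C1QB is above C1QA in Normal_2, Injury_1 and Injury_2, while Normal_1 has only 4 UMIs there.

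The C1QA share was lower in the injured samples at each level of C1Q that could be compared. In the C1Q cluster, cells with 10 to 29 C1Q UMIs had 70.4% C1QA in Normal_1 and 61.6% in Normal_2, but 46.2% in Injury_1 and 45.1% in Injury_2. Cells with 30 to 99 UMIs had 61.5% and 67.5% against 57.1% and 58.1%. With 100 or more, C1QA was at 65.7% in Normal_2, 58.4% in Injury_1 and 54.1% in Injury_2, where only 6 cells qualified.

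Single cells varied in their C1QA share more than counting alone would give, and more so in the injured samples. Among bearing cells of the C1Q cluster the SD of the C1QA percent was 11.9 in Normal_1 and 11.4 in Normal_2, with binomial counting error giving 9.39 and 7.32. It was 16.8 in Injury_1 and 22.1 in Injury_2, with 7.09 and 9.16 from counting. For the other chains in Normal_1 it was near counting error, with 8.75 against 8.33 for C1QB and 6.27 against 6.39 for C1QC. In the other samples the SDs of C1QB and C1QC were above counting error. C1QA was the most frequent chain in 95.8% and 100% of the bearing cells of the normal samples, in 89.4% in Injury_1 and in 76.2% in Injury_2.

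Some macrophage-like cells had C1QB and C1QC but no C1QA. Of 271 cells with at least 10 C1Q UMIs, 13 had 0 C1QA UMIs, among them 8 of 137 in Injury_1, 4 of 63 in Injury_2, 1 of 47 in Normal_2 and 0 of 24 in Normal_1. They carried 7 to 39 C1QB and 1 to 10 C1QC UMIs at a median depth of 7015 UMIs, and 9 of the 13 belonged to the C1Q cluster. Cells without C1QB were rarer, with 2 of 271, and 11 lacked C1QC, the chain with the lowest level. No test was made of these counts, because cells of a sample are not replicates.

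**Figure D4:**
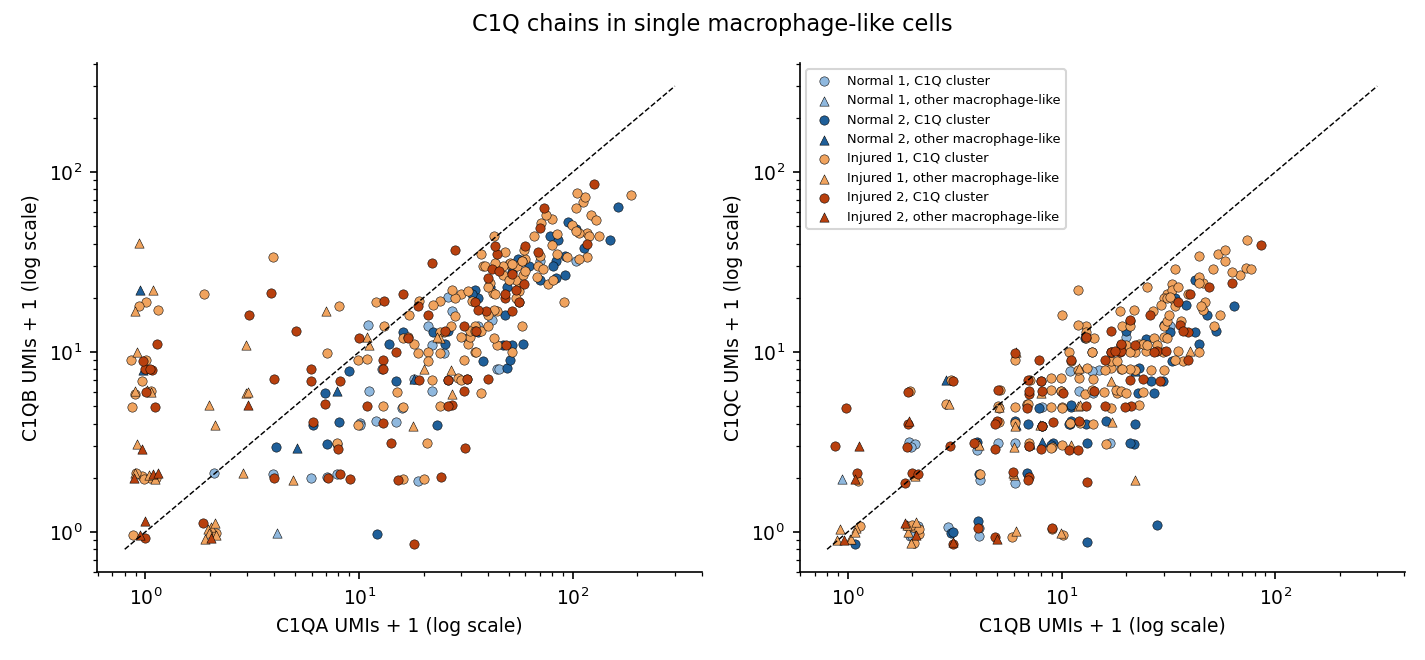
UMIs plus 1 of C1QB against C1QA (left) and of C1QC against C1QB (right) in single macrophage-like cells with at least 1 C1Q UMI, on log axes with a small jitter, and a dashed line at equal values. Most cells lie below the line, and a column of mostly injured cells at the left edge has C1QB but 0 UMIs of C1QA.

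The cluster led by IL1B and SERPINB2 had another order of chains. Its C1Q UMIs numbered 4 in Normal_1, 89 in Normal_2, 460 in Injury_1 and 15 in Injury_2, and C1QB led with 46.1%, 46.3% and 53.3% in the last 3, where C1QA had 31.5%, 37.4% and 13.3%. The comparison with the C1Q cluster can be made at matched totals of 10 to 49 C1Q UMIs per cell. In Injury_1, 14 such cells of this cluster had 41.5% C1QA and 43.8% C1QB, while 43 cells of the C1Q cluster had 53.0% and 30.3%. In Normal_2, 4 cells had 35% C1QA, beside 65.3% in 14 cells of the C1Q cluster. Only these samples had at least 3 such cells in both clusters, and the 2 pairs of values are given as a description.

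Where C1Q was present, the chains were usually found together. Among C1Q cluster cells, 23 of 41 in Normal_1, 39 of 57 of Normal_2, 115 of 297 of Injury_1 and 59 of 228 of Injury_2 had UMIs of all 3 chains. Of 253 bearing cells in this cluster, 232 had all 3. A cell with C1QA also had C1QB in 100% of cases in Normal_1, 97.8% in Normal_2, 99.2% in Injury_1 and 96.9% in Injury_2. The reverse was less complete after injury, since C1QA was found in 100% of the C1QB cells of both normal samples, but in 89.4% in Injury_1 and 90.0% in Injury_2. Only 10 of the 623 cells had a single kind of chain, with a median of 1 C1Q UMI.

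Detection of all 3 chains was rare in cells with few C1Q UMIs. Of 9075 fibroblast-like cells, which were deeper at a median of 7278 UMIs, 3 had all 3 chains and 76 had a single one. They held only 129 C1Q UMIs in all, so few of them could show all 3 chains. The contrast therefore does not bear on whether the chains occur together. After thinning each macrophage-like cell to 1000 UMIs, cells with all 3 chains made up 12.4% in Normal_1, 22.2% in Normal_2, 12.6% in Injury_1 and 5.88% in Injury_2, beside 17.4%, 35.3%, 19.8% and 11.1% without thinning. The thinned shares overlapped between conditions (difference -8.05 percentage points, exact permutation p = 0.667). Between 3 and 8 cells per sample were too shallow for the thinning.

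To ask whether C1Q changed with injury, UMIs were summed per sample and tested across all genes by the quasi-likelihood test of edgeR with Benjamini-Hochberg adjustment. In macrophage-like cells the log2 change of injured over normal was -1.18 (SE 0.69, adjusted p = 0.543) for C1QA, -0.74 (SE 0.69, adjusted p = 0.715) for C1QB and -0.34 (SE 0.56, adjusted p = 0.852) for C1QC. The edgeR test called 0 of the 3 chains and 0 of 5670 genes (0%), 718 genes having an unadjusted p under 0.05, while DESeq2 called 53 genes. Levels of the class also depend on its mix of clusters, and the part of this mix in the change was not tested. The C1Q cluster made up 31.1% of macrophage-like cells in Normal_1, 47.9% in Normal_2, 46.0% in Injury_1 and 42.9% in Injury_2. The changes of the chains depended on the normal samples. Without Normal_1 the change was -1.80 for C1QA (adjusted p = 0.0133) and -1.38 for C1QB (adjusted p = 0.0464), and without Normal_2 it was -0.07 for C1QA, 0.48 for C1QB and 0.38 for C1QC.

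In the C1Q cluster alone, a choice made after its levels had been seen, the change was -1.82 (SE 0.49, adjusted p = 0.186) for C1QA, -1.37 (SE 0.48, adjusted p = 0.275) for C1QB and -0.99 (SE 0.39, adjusted p = 0.303) for C1QC. Of 4356 genes tested 0.941% were called (41 genes, 14 higher or 0.321% and 27 lower or 0.62%) and the chains were not among them. Each chain had both injured samples below both normal ones, which was also the case for 21.6% of all genes tested. Without Injury_1 the test called C1QA (-2.40, adjusted p = 2.79e-04) and C1QB (-1.84, adjusted p = 0.0331), and with genes of low counts kept it called C1QA (-1.64, adjusted p = 1.04e-05) and C1QB (-1.19, adjusted p = 0.00797). Among bearing cells only, the differences of the level were the smaller ones given above.

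Over all kept cells, the level depends on the share of macrophage-like cells and on the level within them, and such sums alone cannot tell these apart. Macrophage-like cells were 3.06% of the cells in Normal_1, 1.97% in Normal_2, 10.6% in Injury_1 and 9.62% in Injury_2. The C1QA levels did not follow the order of these shares. C1QA stood at 27.0 CPM in Normal_1, 54.5 in Normal_2, 136 in Injury_1 and 43.4 in Injury_2. C1QB stood at 9.92, 21.6, 70.7 and 24.7 CPM, and C1QC at 5.00, 6.90, 34.6 and 11.2 CPM. Injury_1 was highest for each chain, and both injured samples exceeded both normal ones for C1QB and C1QC but not for C1QA, which was also the case for 22.5% of the genes tested over all cells. The log2 changes of 1.07, 1.53 and 1.89 did not pass the edgeR test (SE 0.65, 0.66 and 0.59, adjusted p = 0.592, 0.472 and 0.348), which called 1 of 10475 genes (0.00955%) and none of the chains, and C1QC passed with DESeq2 (1.91, adjusted p = 0.0325). The C1Q cluster was 0.952% and 0.946% of the cells in the normal samples and 4.88% and 4.12% in the injured ones.

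By the mean over the 4 samples, the partners of C1q were highest in other cells. C1R, which encodes the protease C1r, was highest in fibroblast-like cells with 2172 ± 995 CPM (SD, n = 4), as were C1S with 342 ± 61.2 CPM and the inhibitor gene SERPING1 with 617 ± 274 CPM, which in Normal_1 was higher in glial-like cells. In the C1Q cluster C1R stood at 97.9, 146, 532 and 192 CPM in the order Normal_1, Normal_2, Injury_1, Injury_2, and C1S at 39.2, 27.8, 47.4 and 60.4 CPM. Highest in macrophage-like cells in each sample were instead CFP, which encodes properdin, the stabiliser of the alternative pathway (365 ± 41.4 CPM), VSIG4, a receptor for C3 fragments (29.8 ± 9.60 CPM), and C4BPA, a chain of the C4b-binding protein that limits the classical pathway (78.7 ± 75.7 CPM). C2, the protease that acts with C4 after C1s has cut both, stood at 112, 218, 441 and 134 CPM in macrophage-like cells, which was above fibroblast-like cells only in the injured samples. In the C1Q cluster C2 stood at 548, 629, 802 and 348 CPM, above the 235, 221, 105 and 54.7 CPM of fibroblast-like cells in each sample. CFP stood at 97.9, 135, 243 and 153 CPM in the C1Q cluster, below its 357, 324, 423 and 355 CPM over the whole class. VSIG4 and C4BPA were instead higher in the C1Q cluster than over the class in each sample. CD93, named as a C1q-binding protein, was highest in endothelial-like cells with 294 ± 76.3 CPM. Of 49 complement genes listed, 20 had a row under their symbol, and the others, among them C3, were not analysed here.

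In fibroblast-like cells the log2 change with injury was 1.16 for C1R (SE 0.29, adjusted p = 0.268), 1.20 for SERPING1 (SE 0.29, adjusted p = 0.267) and 0.26 for C1S (SE 0.29, adjusted p = 0.812). C1R stood at 1497 and 1373 CPM in the normal and at 3537 and 2281 CPM in the injured samples, without overlap (21.4% of genes had both injured samples above both normal ones), and SERPING1 at 470 and 334 against 957 and 705 CPM. C2 went the other way, from 235 and 221 CPM to 105 and 54.7 CPM (log2 change -1.37, SE 0.37, adjusted p = 0.306). The edgeR test called 0 of the 11 complement genes tested and 0 of 8884 genes (0%) there, with 918 at an unadjusted p under 0.05 and 250 called by DESeq2. In endothelial-like cells it called 0 of 9 complement genes and 0 of 7487 genes (0%), with 520 at an unadjusted p under 0.05 and 57 called by DESeq2.

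A single complement gene passed the test in the C1Q cluster. C4BPA stood at 509 CPM in Normal_1 and 535 in Normal_2, against 36.8 in Injury_1 and 54.5 in Injury_2. Its log2 change was -3.64 (SE 0.35, adjusted p = 0.00434, edgeR), and it was called in each setting run on this cluster other than bearing cells alone, where it was -2.48 (adjusted p = 0.0657). In the whole macrophage-like class the change was -3.01 (adjusted p = 0.0828). Of the 9 complement genes tested in the C1Q cluster, 0 were higher and 1 lower, with a median log2 change of 0.27 beside 0.03 over all genes tested. The next largest were C1R with 1.38 (adjusted p = 0.313) and COLEC12, a collectin with a collagen-like stalk, with -1.02 (adjusted p = 0.224).

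Other genes of the C1Q cluster also changed, in values over all its cells, with and without C1Q UMIs. Of 7 measured genes of the lipid and scavenger list, 2 rose: GPNMB, a lysosomal glycoprotein, from 13.1 and 17.4 CPM to 1728 and 1446 CPM (log2 change 6.50, adjusted p = 3.90e-04), and LGALS3, which encodes galectin-3 (3.41, adjusted p = 0.00802, a call lost with a mitochondrial limit of 10%, adjusted p = 0.0570, and among bearing cells alone, adjusted p = 0.264). The median of the list was 1.80. VCAN, a matrix proteoglycan of monocytes, rose by 2.69 (adjusted p = 0.0379) among 8 inflammatory monocyte genes, and this call was lost without Normal_1 (adjusted p = 0.0771), without Normal_2 (adjusted p = 0.0580) and in 6 other settings. Of 5 resident macrophage genes tested, LYVE1, a hyaluronan receptor, fell by 1.84 on the log2 scale (adjusted p = 0.0379, but 0.264 without Injury_1 and 0.404 among bearing cells alone), and the others did not pass: MRC1 had -1.12 (adjusted p = 0.119), CD163 -0.61 (adjusted p = 0.529), STAB1 -0.34 and CSF1R 0.11. Of 5 MHC class II genes tested, 0 were called, with a median of 0.09, and of the other C1q-domain genes EMILIN2 had 1.37 (adjusted p = 0.0991).

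Markers of other cells moved with this comparison. The 6 measured smooth muscle and pericyte markers summed to 405 and 632 CPM in the C1Q cluster of the normal samples and to 142 and 66.3 CPM in the injured ones, and 2 of these markers, MYH11 and Tpm2, were among the 27 lower genes. The 5 measured T and NK cell markers stood at 810 and 1132 against 209 and 383 CPM, most of it IL7R (147 to 1094 CPM). The 7 endothelial markers stood at 705 and 469 against 355 and 277 CPM, most of it PECAM1 (255 to 633 CPM), and the 4 neutrophil markers at 46353 and 75346 against 33487 and 30024 CPM, nearly all of it IL1B, which macrophages also express. The 6 fibroblast markers, at 2246 and 9317 against 6887 and 5971 CPM, overlapped. No marker of these 5 lists was at 0 in all 4 samples of the cluster. The 6 measured B cell markers stood at 1064 and 826 against 1074 and 1268 CPM, with MS4A1, CD79B and PAX5 at 0 in all 4 samples, and the mast cell and glial markers, also higher in both injured samples, summed to at most 9.19 CPM. Their part in the result was not tested. With a mitochondrial limit of 10% the number of called genes was 3, which still included C4BPA (adjusted p = 0.0256) and GPNMB (adjusted p = 0.00271).

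C1Q-bearing and C1Q-free cells of the same cluster could be compared within each sample. Their UMIs were summed per sample and state, with at least 12 cells in each sum, the sample was kept as a block, and the 3 chains were left out of the table. Of 2498 genes edgeR called 15 (0.6%), with 8 higher (0.32%) and 7 lower (0.28%) in bearing cells, and without the sample as a block it called 0, with STAB1 at an adjusted p = 1.00. This split was chosen after seeing that C1Q was on or off.

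Among the resident macrophage genes, 1 of 5 passed the test. STAB1, a scavenger receptor, stood at 181, 914, 533 and 638 CPM in the C1Q-free cells of Normal_1, Normal_2, Injury_1 and Injury_2, and at 1139, 1516, 1264 and 1536 CPM in their C1Q-bearing cells (TMM-scaled). It was higher in bearing cells of 4 of 4 samples (log2 difference 1.32, SE 0.22, adjusted p = 0.0251), and the call was lost without Injury_1 (adjusted p = 0.324) and without Injury_2 (adjusted p = 0.280). The others lay above 0 without passing: LYVE1 at 2.00 (adjusted p = 0.310), MRC1 at 1.19 (adjusted p = 0.467), CD163 at 0.98 (adjusted p = 0.389) and CSF1R at 0.50 (adjusted p = 0.191). The median of the 5 was 1.19 beside 0.0057 over all genes tested. In Normal_2 LYVE1 and CD163 were lower in bearing cells, at 223 against 246 and 200 against 334 CPM, and in the other samples they were higher. MRC1 and CSF1R were higher in bearing cells of each sample. The share of all genes tested with 1 direction in each sample was not computed.

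Of 9 complement genes tested between the states, 0 were called. C2 was higher in the bearing cells of each sample, with 901 against 109 CPM in Normal_1, 881 against 475 in Normal_2, 1057 against 673 in Injury_1 and 691 against 253 in Injury_2 (log2 difference 1.24, SE 0.29, adjusted p = 0.191). C4BPA was also higher in each sample, with 789 against 90.7, 704 against 545, 79.3 against 9.30 and 187 against 10.7 CPM (2.42, SE 0.75, adjusted p = 0.537). CLU, which encodes clusterin, was lower in each, with a log2 difference of -1.24 (adjusted p = 0.0966). C1R (-0.16), C1S (0.14) and SERPING1 (-0.33) were near 0.

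The 7 genes lower in bearing cells were CHI3L1 (log2 difference -2.30), TNFAIP6 (-1.69), MMP12 (-1.65), CTSE (-1.48), OGN (-1.30), COL14A1 (-1.23) and CHIT1 (-1.10), with adjusted p from 3.01e-04 to 0.0280. The 8 higher genes were STAB1, IER3 (0.53), SLC15A2 (1.76), GSG1 (2.36) and 4 genes without a symbol. Apart from STAB1 these genes belong to none of the lists and are named here after their values were seen. Of the lower genes, OGN, COL14A1 and TNFAIP6 were also among the leading genes of fibroblast-like clusters, and CTSE of an epithelial-like cluster. Of the higher ones, STAB1 was among those of an endothelial-like cluster. CHI3L1 and MMP12 also had 0 UMIs in the C1Q cluster of both normal samples. The summed fibroblast markers stood at 4313 CPM in bearing and 9313 in free cells of Injury_1 and at 3434 and 7271 CPM in Injury_2, but at 193 and 112 CPM in Normal_1 and 7887 and 5009 CPM in Normal_2. None of the 6 fibroblast markers was at 0 in either state. Their part in the difference was not tested. High doublet scores were found in 4 of 12 C1Q-free cells of Normal_1, 0 of 12 of Normal_2, 20 of 163 of Injury_1 and 11 of 155 of Injury_2. Among C1Q-bearing cells they were found in 2 of 24, 1 of 43, 7 of 123 and 2 of 63 in the same order. Without cells of high doublet score edgeR called 17 genes, with STAB1 at an adjusted p = 0.0710.

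**Figure D5:**
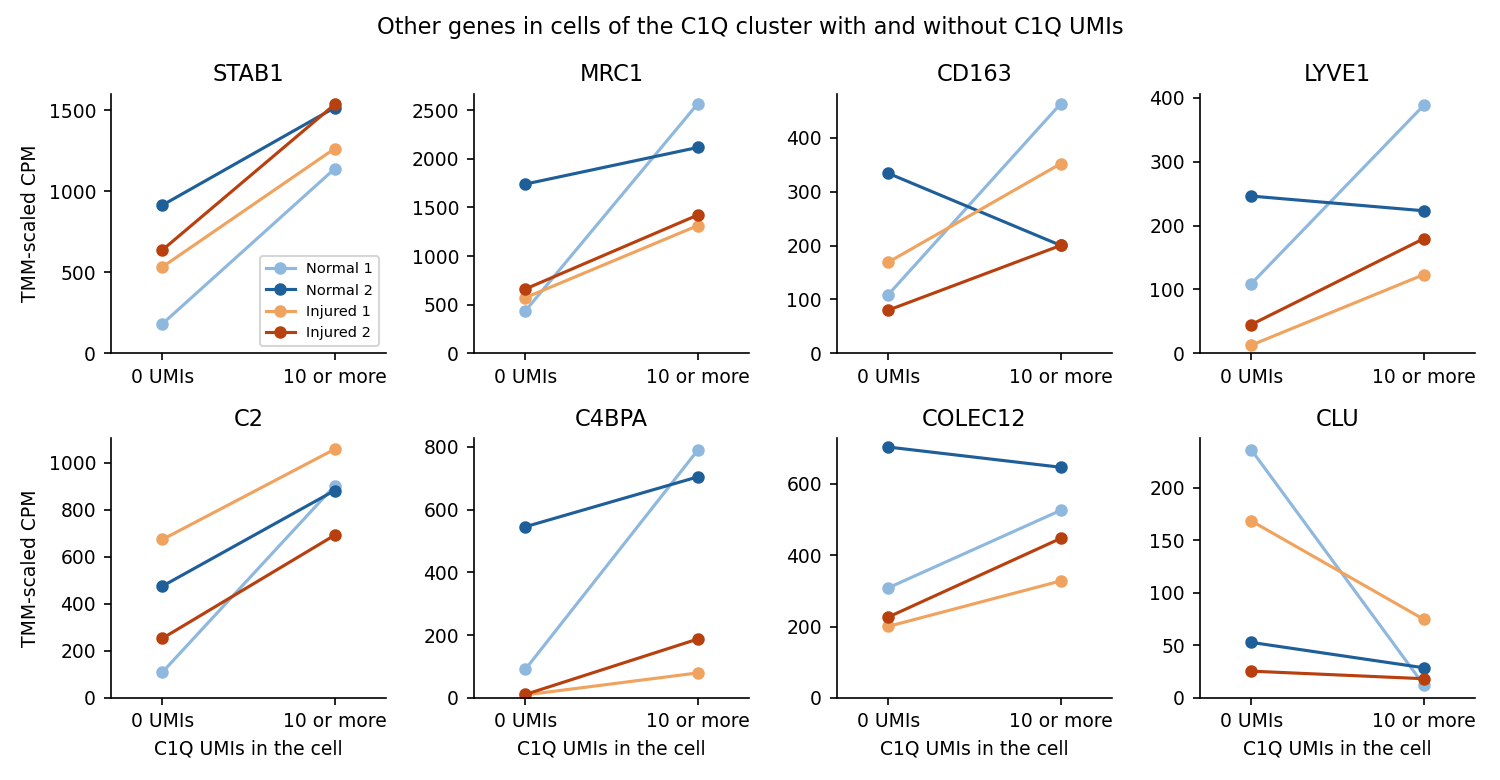
TMM-scaled CPM (y axis) of 8 genes in cells of the C1Q cluster with 0 C1Q UMIs and with 10 or more (x axis), with 1 line per sample. STAB1, MRC1, C2 and C4BPA rise from free to bearing cells along all 4 lines and CLU goes down along all 4. LYVE1, CD163 and COLEC12 go down in Normal_2 and rise in the other samples, and of the 8 genes only STAB1 passed the test.

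The gene whose pattern was most like that of C1Q was CD163, the haemoglobin scavenger receptor of macrophages. Over 100 groups of cells (a cluster in a sample with at least 20 cells), log2(CPM + 10) of 5970 named genes was set beside the summed C1Q level. Each of these genes had at least 20 CPM in at least 1 group. CD163 had a Pearson r of 0.917, followed by VSIG4 (0.882), CSF1R (0.880), MSR1 (0.862), CYBB (0.861), MRC1 (0.861), TXLNB (0.854), SLC46A1 (0.851), MLANA (0.851) and TFEC (0.841). CD163 stood at 106 to 307 CPM in the C1Q cluster and at no more than 24.9 CPM in any other group, and TXLNB at 22.1 to 52.2 against at most 3.81 CPM. TXLNB reached the limit of 20 CPM in the C1Q cluster alone. Genes ranked by likeness to C1Q are high in that cluster by choice, so these ranges are no further support. Within the cluster CD163 stood at 307, 188, 236 and 106 CPM in Normal_1, Normal_2, Injury_1 and Injury_2, an order unlike that of C1Q. MLANA, at 131 to 229 CPM in the C1Q cluster, reached 37.4 CPM in a group outside the macrophage-like class. Between the chains themselves r was 0.990 for C1QB and C1QC, 0.981 for C1QA and C1QB and 0.974 for C1QA and C1QC. The groups share libraries and depth, so these values describe the 100 groups and carry no test.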

How the data were processed

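The authors deposited UMI counts per gene and barcode for 4 samples, made with Cell Ranger (version 6.0.1 per the file headers). The genome build is not given in the sources used here. The study's limits on cells (at least 500 UMIs, 200 genes and at most 15% mitochondrial UMIs, over 13 genes) were applied here. Cells were normalized, integrated over 2000 genes without C1QA, C1QB and C1QC, and clustered (30 components, resolution 0.8) with Seurat 5.3.0. Of 30 clusters 27 were named from fixed markers, each with at least 3 raised. Scrublet scores came from scanpy 1.11.5. Tests used edgeR 4.0.16 with filterByExpr and TMM, an adjusted p under 0.05 counting as a call, DESeq2 1.42.0 as an alternative, and exact permutation. Shares of cells have 95% Wilson intervals, and 0 counts are given the limit that 3 UMIs set. Total UMIs per sample were 28745017 to 47881609. The edgeR script was tested on simulated data. The members and lists were chosen with earlier results of these data known. Named genes were the members, the listed complement and macrophage genes, and the 10 most like C1Q. The effect of each alternative is given in the closing section.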

Additional observations from a re-analysis of the deposited data

Results flagged for a closer look

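C4BPA was below both normal samples in the macrophage-like cells of both injured samples and above them in their fibroblast-like cells. Its log2 change was -3.01 in the first class and 2.58 in the second, a difference of -5.59 that was not tested, and in fibroblast-like cells its level was only 0.133 and 1.3 CPM in the normal and 2.42 and 7.88 CPM in the injured samples. CLU was above both normal samples in the injured fibroblast-like cells (1670 and 371 against 207 and 101 CPM in the normal ones) and below them in endothelial-like cells (3203 and 2260 against 3254 and 3984 CPM), a difference of 3.14 in log2 change that was not tested either. None of these changes passed the edgeR test in its class. The genes were found by searching the chains and the complement genes for opposite directions between these classes. In fibroblast-like cells 21.4% of all genes tested had both injured samples above both normal ones. The share with both below was not computed for the macrophage-like and endothelial-like classes, so these patterns are a description.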

How the results depend on the processing

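The comparisons rest on 2 against 2 samples, and the C1Q cluster held only 41 and 57 cells in the normal samples. Among the alternatives listed at the outset, 268 recomputed values kept the direction and the side of the threshold, or a count within 1.5 times, 27 gained a call, 31 counts moved further and 4 values changed sign. Among those chosen after seeing the data, 231 kept it, 21 lost a call, 20 gained one and 19 counts moved. In macrophage-like cells the number of called genes, 0 with TMM, was 12 with UMI totals alone, 320 without a filter on low counts, 53 with DESeq2, 5 with a mitochondrial limit of 10% and 51 to 434 with a sample left out. It was 41 in the C1Q cluster alone. The change of C1QA ranged from -1.96 to -0.069 with a sample left out, that of C1QB from -1.42 to 0.48 and that of C1QC from -1.10 to 0.38, with 0.17 for C1QC without Injury_2. Over all cells the count of 1 became 24 without the filter, 424 with DESeq2, 0 with a mitochondrial limit of 10%, 0 without high doublet scores and 1 to 33 with a sample left out, and C1QC had 1.91 with DESeq2. In fibroblast-like cells the count of 0 became 268 without the filter, 250 with DESeq2 and 35 to 323 with a sample left out, and in endothelial-like cells 8, 57 and 6 to 31.

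In the C1Q cluster, where the alternatives were chosen after seeing the data, the count of 41 became 19 with UMI totals alone, 249 without the filter, 78 with DESeq2, 3 with a mitochondrial limit of 10%, 26 with at least 1000 UMIs and 500 genes, 19 without high doublet scores, 14 among bearing cells, 23 with the chains kept in clustering and 63 to 213 with a sample left out. Between bearing and free cells the count of 15 became 8 with at least 3 C1Q UMIs and 2 to 82 with a sample left out. The difference in the share of C1Q UMIs held by macrophage-like cells was -0.036 points with a mitochondrial limit of 10%. The cause of these shifts was not tested.

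The titles share replicate numbers 1 and 2 between conditions, which nothing ties to a common animal or batch. Same-numbered samples deviated together with a correlation of 0.325 over all cells and -0.083 in macrophage-like cells. With the replicate block the counts were 132 in macrophage-like, 220 over all, 211 for fibroblast-like cells and 3 for endothelial-like ones, and 46 in the C1Q cluster. Between bearing and free cells, which share their sample, the count without the block was 0.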
